A study of Mus musculus with 2 samples.

Results

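The solute carriers of ions, sugars, nucleosides and other small molecules were compared between the CD133-positive and CD133-negative cells of a mouse gastric epithelial line. The genes were taken by their name on the array. A gene belonged if a probe carried Slc, a number, the letter a and a digit, or Slco and a digit. Symbols with another letter in place of the a were not included. The families Slc1, Slc3, Slc6, Slc7, Slc25, Slc36, Slc38 and Slc43, which carry mainly amino acids or mitochondrial metabolites, were left out. This gave 219 genes with 332 probes, out of 27670 genes with 41174 probes on the array. Of these, 130 genes could be tested, because a probe gave a signal well above background on both arrays in at least one of the fractions, out of 15267 tested genes in all (0.852%). Both fractions came from GIF-5, a cultured gastric epithelial cell line with the genotype Runx3-/-p53-/-, so the reference fraction lacks Runx3 and p53 as well, and any difference is one between cells of a single line. The fractions were separated by flow cytometry after staining with an antibody to CD133 (the product of Prom1), and 2 two-colour arrays each compared CD133-positive RNA, labelled with Cy3, with CD133-negative RNA, labelled with Cy5. The labels call the arrays biological replicates 1 and 2 without saying whether they came from separate cultures. The dyes were not swapped, so a dye effect and a difference between the fractions cannot be told apart.

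Solute carriers are membrane proteins that move small molecules across the plasma membrane or the membranes of organelles. Some let a solute run down its own gradient, others exchange it for another solute, and others draw it inward with sodium or protons, so that the sodium pump supplies the energy for many of them. The gastric lining depends on them to move chloride, bicarbonate, sodium and protons, to take up sugar and vitamins, and to hand on the lactate, nucleosides and metals that its cells use. Members of a family share their fold and often their type of substrate, but differ in direction, affinity, coupling ion and place in the cell.

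Promoter sequences are shown for the members whose levels differed most clearly, since these members do not share a family and their start sites can be set side by side. They are those that passed the test for a difference and have an entry in the RefSeq promoter table (build GRCm38.p6), together with the single member that was at least 2-fold lower on both arrays. In all, 4 of 5 such genes matched an entry, and Slc16a6 is named only. Each sequence runs from 250 bases before the start of the gene to 50 after it, 5′ to 3′ on the strand of the gene. Capitals mark matches, on either strand, to 4 short motifs. They are the TATA box, spelled TATAAA. Another is the GC box, which was searched as GGGCGG. The CCAAT box was searched under its own letters, and the GATA motif in the form AGATAA. No match of one motif overlapped a match of another.
Slc28a2, chr2:122426185-122426484, plus strand: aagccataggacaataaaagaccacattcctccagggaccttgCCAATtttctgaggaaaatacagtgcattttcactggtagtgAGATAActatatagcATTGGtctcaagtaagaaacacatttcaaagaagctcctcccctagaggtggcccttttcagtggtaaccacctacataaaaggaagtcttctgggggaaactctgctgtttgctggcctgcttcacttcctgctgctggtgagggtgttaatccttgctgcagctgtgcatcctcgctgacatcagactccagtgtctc
Slc37a1, chr17:31295974-31296273, plus strand: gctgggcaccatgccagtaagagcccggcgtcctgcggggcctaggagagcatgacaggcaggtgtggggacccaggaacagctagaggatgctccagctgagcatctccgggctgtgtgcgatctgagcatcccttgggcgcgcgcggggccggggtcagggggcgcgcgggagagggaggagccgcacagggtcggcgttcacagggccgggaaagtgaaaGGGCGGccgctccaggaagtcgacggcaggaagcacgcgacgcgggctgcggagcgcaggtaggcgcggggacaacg
Slc15a2, chr16:36784913-36785212, minus strand: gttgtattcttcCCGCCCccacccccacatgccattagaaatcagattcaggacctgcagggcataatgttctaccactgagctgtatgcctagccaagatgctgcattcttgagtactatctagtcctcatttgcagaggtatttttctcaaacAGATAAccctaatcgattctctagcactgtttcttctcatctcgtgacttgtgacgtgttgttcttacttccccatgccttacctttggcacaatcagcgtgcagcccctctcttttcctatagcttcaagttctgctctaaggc
Slc2a5, chr4:150119094-150119393, plus strand: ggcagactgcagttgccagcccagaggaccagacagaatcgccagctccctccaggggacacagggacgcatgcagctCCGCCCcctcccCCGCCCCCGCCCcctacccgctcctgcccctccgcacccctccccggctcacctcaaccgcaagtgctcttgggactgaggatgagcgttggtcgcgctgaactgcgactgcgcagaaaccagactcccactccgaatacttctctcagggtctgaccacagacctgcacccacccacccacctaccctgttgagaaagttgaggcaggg

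The 4 promoters differed in composition. Those of Slc28a2 and Slc15a2 had 46.7% and 46.3% G and C, those of Slc37a1 and Slc2a5 had 70.3% and 65.3%, and the median of all 32851 promoters in the table was 52.7%. None of the 4 held TATAAA, which 13.6% of all promoters hold. The Slc28a2 promoter had CCAAT matches at positions -207 and -150 relative to the start site, a motif found in 37.4% of all promoters, and an AGATAA match at -165. AGATAA was also present in the Slc15a2 promoter, at -95, and is found in 11.2% of all promoters. GGGCGG, found in 35.7% of all promoters, occurred once in Slc37a1, at -27, once in Slc15a2 and 3 times in Slc2a5. No motif was shared by all of the promoters of genes higher in CD133-positive cells.

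The test separated 4 carriers of different substrates, all higher in CD133-positive cells: the nucleoside carrier Slc28a2, the sugar-phosphate carrier Slc37a1, the monocarboxylate carrier Slc16a6 and the peptide carrier Slc15a2. No carrier passed the test in the lower direction, where the lowest adjusted p was 0.0619, for the fructose carrier Slc2a5. Among all tested genes, 1.38% were called higher and 0.262% lower (limma, adjusted p under 0.05 over all tested genes), against 4 and 0 of the 130 tested carriers. At an unadjusted p under 0.05, 34 carriers were higher and 22 lower, but the share of all tested genes at this threshold is not given here. With each array centred on its median in place of a loess curve, 12 carriers were called higher and 68 lower, and with no background correction 7 and 1. Of all 15267 tested genes, 484 were called higher and 9622 lower with median centring, and 284 and 115 with no background correction. RNA was measured in bulk in each fraction, so fewer cells carrying a transcript and less of it per cell cannot be told apart.

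Slc28a2 had by far the largest difference of the carriers tested. It encodes a sodium-coupled concentrative nucleoside transporter that takes up purine nucleosides and uridine. Its log2 intensity after normalisation was 11.61 and 12.73 in CD133-positive cells on arrays 1 and 2, against 6.84 and 7.81 in CD133-negative cells. The fractions did not overlap, and the spread between the arrays within a fraction was much smaller than the gap between fractions. The log2 ratio of CD133-positive over CD133-negative cells was 4.77 and 4.92, with a mean of 4.84 ± 0.14 (moderated SE, n = 2 arrays), a 28.7-fold difference (adjusted p = 0.00967). It rests on 1 probe, and RefSeq also lists a further family member, Slc28a2b, on the same chromosome, 2. Whether the probe also reads that gene was not tested.

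Slc37a1 encodes an exchanger of glucose 6-phosphate for phosphate in the endoplasmic reticulum. Its log2 intensity was 10.07 and 10.08 in CD133-positive cells and 8.24 and 7.85 in CD133-negative cells. The ratio was 1.83 and 2.24 on the log2 scale, 2.03 ± 0.17 on average, or 4.09-fold (adjusted p = 0.034). Levels in CD133-positive cells were almost the same on both arrays and stood above both CD133-negative values.

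Slc16a6 encodes monocarboxylate transporter 7, known in zebrafish as an exporter of ketone bodies from the liver. It had log2 intensities of 10.53 and 10.14 in CD133-positive cells and 8.69 and 8.25 in CD133-negative cells, a log2 ratio of 1.83 and 1.90, or 1.87 ± 0.14, and 3.64-fold (adjusted p = 0.0272). A second Slc16a6 probe, which did not rise clearly over background in the CD133-negative channel, had a ratio of 0.36, and the call was lost when the dimmest probe stood for each gene (adjusted p = 0.190). Slc15a2 encodes PEPT2, a proton-coupled carrier with high affinity for di- and tripeptides. Its log2 intensity was 7.44 and 7.55 in CD133-positive cells and 6.06 and 6.12 in CD133-negative cells. The log2 ratio was 1.37 and 1.43, 1.40 ± 0.14 on average, or 2.64-fold (adjusted p = 0.0442). In neither gene did the fractions overlap. Without a filter on dim probes the adjusted p was 0.103 for Slc37a1, 0.0669 for Slc16a6 and 0.0929 for Slc15a2, and with the dimmest probe of each gene it was 0.0506 for Slc15a2. Without moderation of the variance none of the 4 was called.

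**Figure D1:**
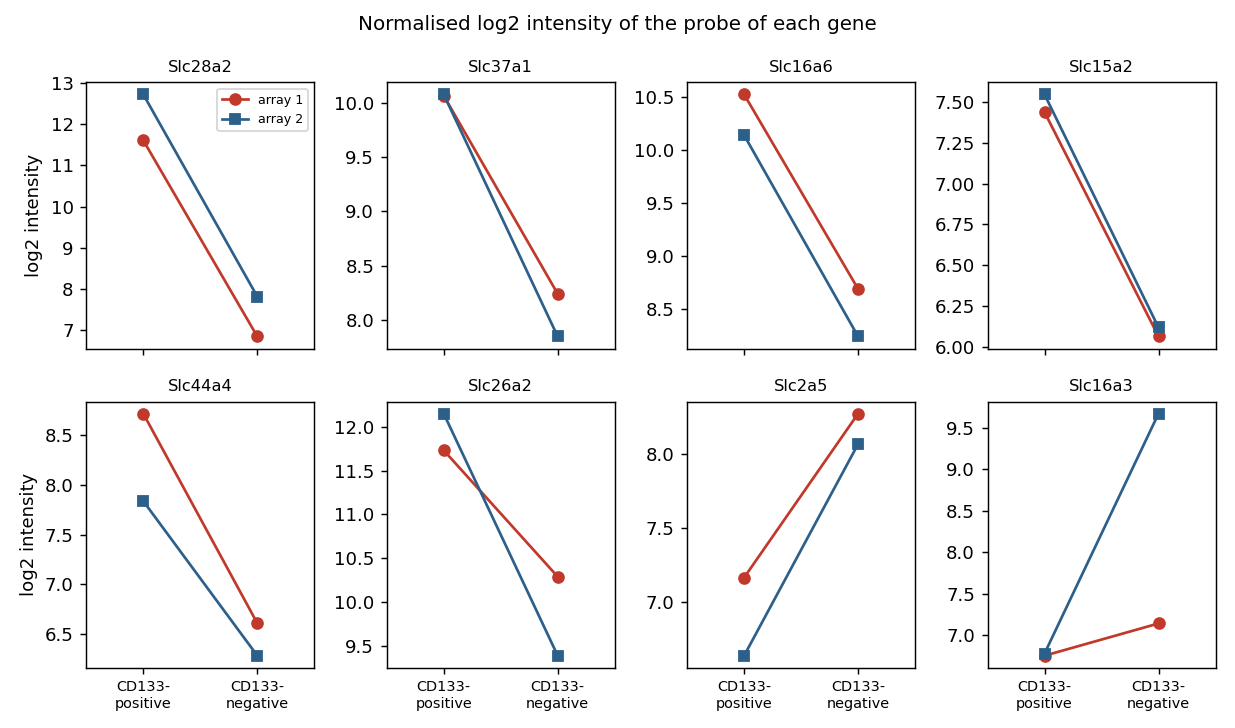
Log2 intensity after normalisation (y axis, its own scale in each panel) of 8 carriers in CD133-positive cells and CD133-negative cells (x axis); circles are array 1, squares are array 2, and a line joins the channels of an array. Slc28a2 has the widest gap, 11.61 and 12.73 in CD133-positive cells against 6.84 and 7.81 in CD133-negative cells, Slc2a5 is lower in CD133-positive cells on both arrays, and the Slc16a3 gap is wide on array 2 only.

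A wider set is given by a plain rule of size, at least 2-fold on both arrays, which needs no estimate of variance. By this rule 10 carriers were higher and 1 was lower in CD133-positive cells, where 2.50% of all tested genes were higher and 2.12% lower. Besides the 4 called genes, the higher ones were Slc44a4, Slc26a2, Slc16a12, Slc16a10, Slc5a11 and Slc37a4, and the lower one was Slc2a5. On array 2 alone, 17 carriers were higher by this margin and 14 lower, against 13 and 1 on array 1 alone. The share of all tested genes on a single array is not given here, so these counts do not set carriers apart from other genes.

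The sign of the ratio was the same on both arrays for 106 of the 130 tested carriers. It was above 0 on both arrays for 50 and below 0 on both for 56, and it differed between the arrays for 24. Among all tested genes 32.6% were above 0 and 39.7% below 0 on both. The median log2 ratio of the carriers was -0.03, the same as that of all tested genes, -0.03. The median size of the ratio, whatever its sign, was 0.38 for carriers and 0.26 for all tested genes, and the median SD between arrays was 0.15 for carriers and 0.18 for all tested genes. The arrays shared a slide, and over the tested carriers their ratios correlated with a Pearson r of 0.833 and a Spearman rho of 0.778, as a description across genes, which are not independent replicates. A member could pass the filter through only the fraction where it is bright, which favours members that differ, so these counts describe the tested members and not the 219. In both fractions on both arrays, 113 carriers were well above background.

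**Figure D2:**
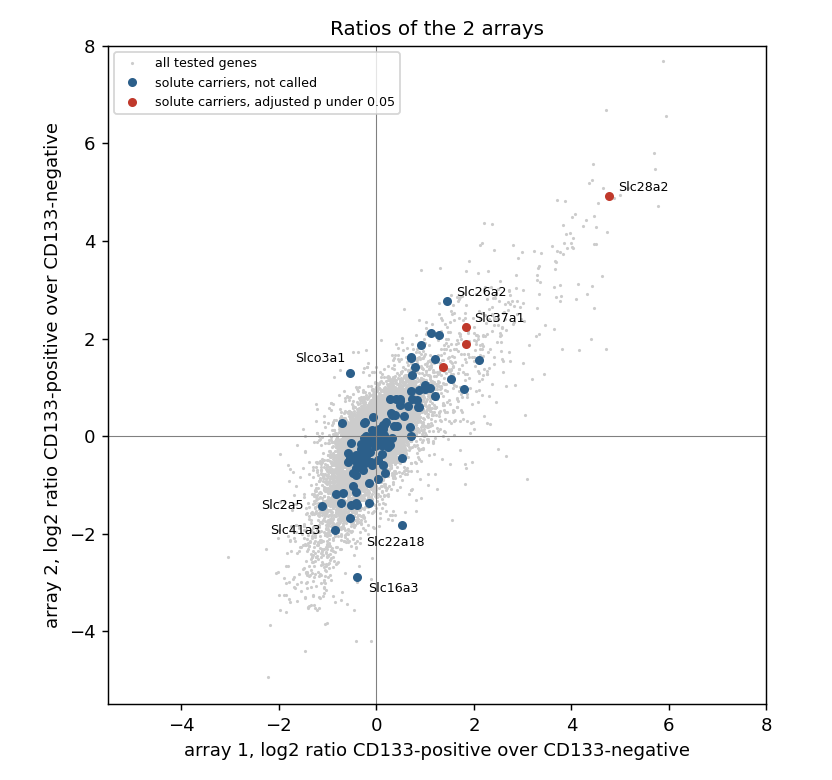
Log2 ratio of CD133-positive over CD133-negative cells on array 2 (y axis) against array 1 (x axis); large points are the 130 tested carriers, red where called, and small grey points are all tested genes. Slc28a2 stands apart from the other carriers at 4.77 and 4.92, while Slc16a3, Slc22a18 and Slco3a1 differ between the arrays.

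Substrate classes were compared by their counts and medians. Carriers were placed by family, whatever the substrate of a single member, except that members of Slc5 and Slc17 were split between classes. The 2 genes Slc5a3 and Slc5a5 were kept apart as other, as were 3 regulators with a carrier name. The monocarboxylate class therefore holds all of Slc16, among them the aromatic amino acid carrier Slc16a10 and the creatine carrier Slc16a12. The class named vitamins and haem held only members of Slc19 and Slc23 and Slc5a6, none of them a haem carrier. Its median was the value of a single gene, Slc23a3. The class medians ran from 0.64 for monocarboxylates and 0.60 for vitamins and haem to -0.35 for cation-chloride and calcium carriers and -0.43 for phosphate, sulfate and carboxylate carriers. Those of monocarboxylates, vitamins and haem, nucleotide sugars and organic ions stayed above the median of all tested genes in each of 10 alternative settings, and those of nucleosides and of cation-chloride and calcium carriers stayed below it. Several came close to it: without a filter on dim probes the median relative to all genes was 0.034 for monocarboxylates, against 0.67 as reported, 0.17 for vitamins and haem, against 0.63, and -0.092 for cation-chloride and calcium carriers, against -0.32. With the dimmest probe of each gene it was 0.19 for monocarboxylates and 0.25 for vitamins and haem. The other classes changed sign under at least 1 setting. Within every class of more than 5 tested members the single genes lay on both sides of 0.

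**Figure D3:**
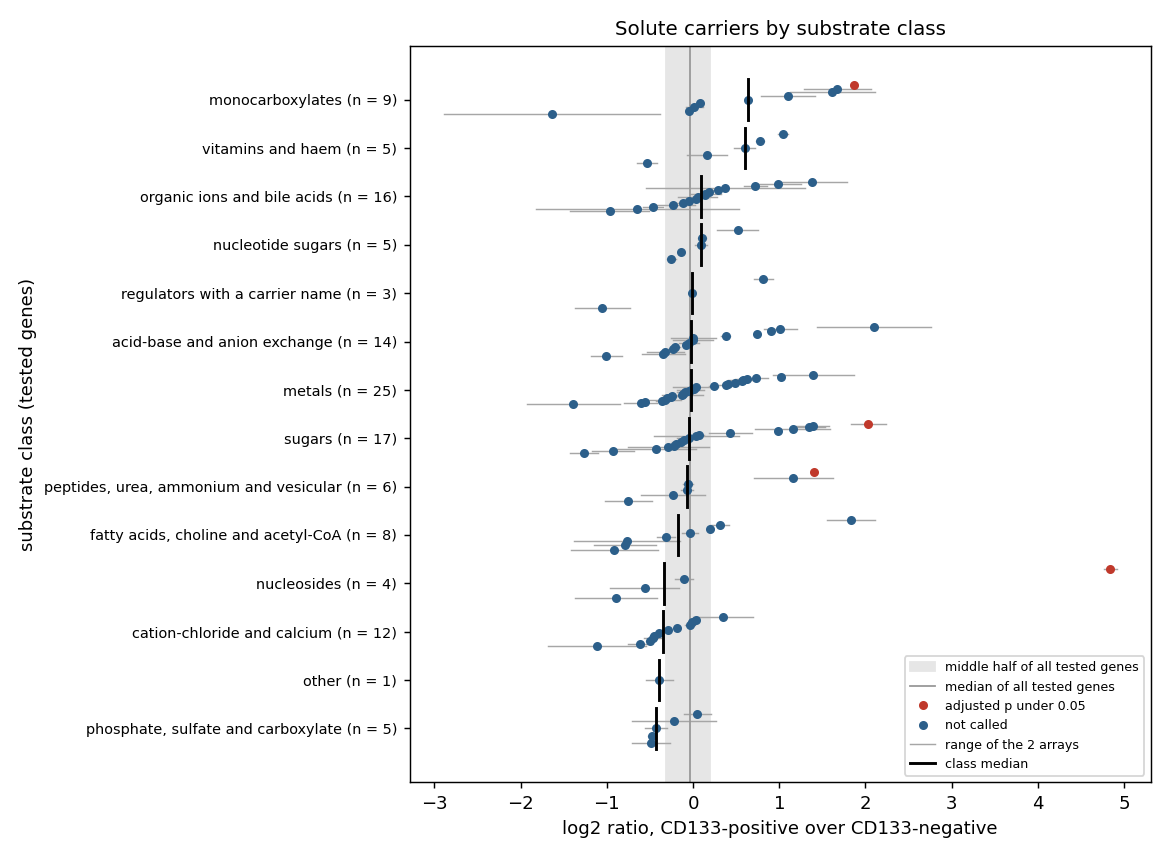
Log2 ratio of CD133-positive over CD133-negative cells (x axis) of each tested carrier by substrate class (y axis); points are means of 2 arrays, red where called, thin lines the range of the arrays, thick bars the class medians, and the grey band the middle 50% of all tested genes. The monocarboxylate and vitamin classes have medians of 0.64 and 0.60, and Slc28a2 lies far from the other nucleoside carriers.

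Among nucleoside carriers, Slc28a2 was the only one called. The 3 tested equilibrative carriers of family Slc29, which let nucleosides pass along their gradient, had means below 0 and none was called. Slc29a1 had log2 intensities of 10.44 and 10.12 in CD133-positive cells and 10.60 and 11.08 in CD133-negative cells, and a ratio of -0.56 ± 0.25 (adjusted p = 0.239). For Slc29a2 the levels were 8.23 and 7.53 in CD133-positive cells and 8.65 and 8.91 in CD133-negative cells, with a ratio of -0.90 ± 0.28 (adjusted p = 0.149). Neither passed the test. Slc29a3, an equilibrative carrier of intracellular membranes, was at -0.10 ± 0.15 (adjusted p = 0.708), and with median centring it lay 0.43 above the median of all genes. Of the remaining members, Slc28a3, the concentrative carrier of broad specificity, was above background only in part, and Slc29a4 had no probe above background. The 12 enzymes of nucleoside salvage on the array were all tested and none was called, with a median of -0.17. Cytidine deaminase, Cda, was at least 2-fold lower on both arrays, at -1.12 and -2.35 (adjusted p = 0.088), adenosine deaminase, Ada, was at -1.02 ± 0.14 (adjusted p = 0.0667), and Hprt, which salvages hypoxanthine and guanine, was at -0.84 ± 0.15 (adjusted p = 0.0822).

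Monocarboxylate carriers of family Slc16 had 9 tested members, 6 above 0 and 2 below 0 on both arrays, and 3 at least 2-fold higher. Slc16a1 encodes MCT1, the widespread proton-coupled carrier of lactate and pyruvate, and had log2 intensities of 13.52 and 14.03 in CD133-positive cells against 12.73 and 12.61 in CD133-negative cells. Its ratio was 1.10 ± 0.21 (adjusted p = 0.0861), its fractions did not overlap, and its other tested probes gave 0.96 and 0.63. Slc16a10, a carrier of aromatic amino acids, had 9.15 and 9.73 in CD133-positive cells against 8.03 and 7.63 in CD133-negative cells and a ratio of 1.62 ± 0.29 (adjusted p = 0.0822). Its other probes gave 0.17 and 0.79, so the size of the difference depended on the probe. Slc16a12, a creatine carrier, was at 1.28 and 2.06, or 1.67 ± 0.24 (adjusted p = 0.0677), and on 1 of the arrays its CD133-negative signal was not well above background. Slc16a13 was at 0.64 ± 0.14 (adjusted p = 0.0959).

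Slc16a3, which encodes the lactate exporter MCT4, went the other way and was the least repeatable. Its log2 intensity was 6.75 and 6.78 in CD133-positive cells, against 7.14 and 9.67 in CD133-negative cells. The ratio of -0.39 and -2.89 therefore rested on the CD133-negative level of array 2, and its mean of -1.64 ± 0.65 did not pass the test (adjusted p = 0.207). Slc16a8 and Slc16a11 were at -0.05 and 0.08. MCT1 and MCT4 reach the cell surface with a partner glycoprotein, basigin (Bsg) or embigin (Emb). Emb was called higher, with log2 ratios of 4.42 and 5.25 and a mean of 4.84 ± 0.25 (adjusted p = 0.0166), whereas Bsg was at 0.80 and 0.14 (adjusted p = 0.252). The sodium-coupled monocarboxylate carriers Slc5a8 and Slc5a12 had no probe above background in either fraction.

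Sugar and sugar-phosphate carriers split by family. All 4 members of family Slc37, which includes sugar-phosphate exchangers of the endoplasmic reticulum, were tested, and 3 of them were above 0 on both arrays. Slc37a4, which brings glucose 6-phosphate to glucose-6-phosphatase, had 11.78 and 11.53 in CD133-positive cells against 10.24 and 10.36 in CD133-negative cells and a ratio of 1.35 ± 0.17 (adjusted p = 0.0613). Slc37a3 had 11.82 and 12.43 in CD133-positive cells against 11.10 and 10.84 in CD133-negative cells and a ratio of 1.16 ± 0.26 (adjusted p = 0.104). Levels of both genes were higher in CD133-positive cells on each array. Slc37a2 was too dim in CD133-positive cells to stand well above background. As measured it was 1.14-fold lower there (adjusted p = 0.429), and with median centring it lay 0.58 above the median of all genes. Where a fold is given below as at least a value, the bound uses the lowest well-measured signal of the dim channel. The dim signal itself was used where it was higher. The family median stayed between 1.04 and 1.32 above that of all genes under 5 other ways of scaling and background correction and the one used here.

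The facilitative hexose carriers of family Slc2 did not move together: 1 of 8 tested members was above 0 and 4 were below 0 on both arrays, and the family median relative to all genes ran from -0.50 to 0.24 across the ways of scaling. Slc2a3, the high-affinity glucose carrier GLUT3, had 7.11 and 7.19 in CD133-positive cells and 6.11 and 6.23 in CD133-negative cells, a ratio of 0.98 ± 0.14 (adjusted p = 0.0667), while 2 other probes of it were not well above background in either fraction. Slc2a1, the widespread glucose carrier GLUT1, was at 0.53 and -0.46 on arrays 1 and 2, with levels of 13.45 and 12.48 in CD133-positive cells and 12.91 and 12.94 in CD133-negative cells, so its direction was not settled. Slc2a5, the fructose carrier GLUT5, had 7.16 and 6.64 in CD133-positive cells and 8.27 and 8.07 in CD133-negative cells, a ratio of -1.11 and -1.43, or -1.27 ± 0.16, which is 2.41-fold lower in CD133-positive cells. It missed the threshold (adjusted p = 0.0619) and passed it under 5 of 10 other settings. Slc2a2 and Slc2a9 were not well above background in CD133-positive cells. As measured they were 1.10-fold and 1.17-fold lower there (adjusted p = 0.609 and 0.386). With median centring they lay 0.64 and 0.59 above the median of all genes. Slc2a6 and Slc2a8 were at -0.29 and -0.43 with signs that differed between arrays.

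Of the sodium-coupled and other sugar carriers, Slc5a11, a myo-inositol carrier, was at 1.39 ± 0.17 (adjusted p = 0.0608) and its CD133-negative signal was well above background on only 1 array. Slc5a3, a second myo-inositol carrier, gave no CD133-positive signal well above background by the probe bearing its name, and was at -0.93 and -1.40 on arrays 1 and 2 by another probe that the files list under an expressed-sequence name. Slc45a4 had a ratio of -0.93 ± 0.18 (adjusted p = 0.088). The intestinal and renal glucose carriers Slc5a1 and Slc5a2 had no probe above background. Among genes of sugar use, hexokinase 2, Hk2, was at 1.23 and 1.22 (adjusted p = 0.0535), and none of 4 tested was called.

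**Figure D4:**
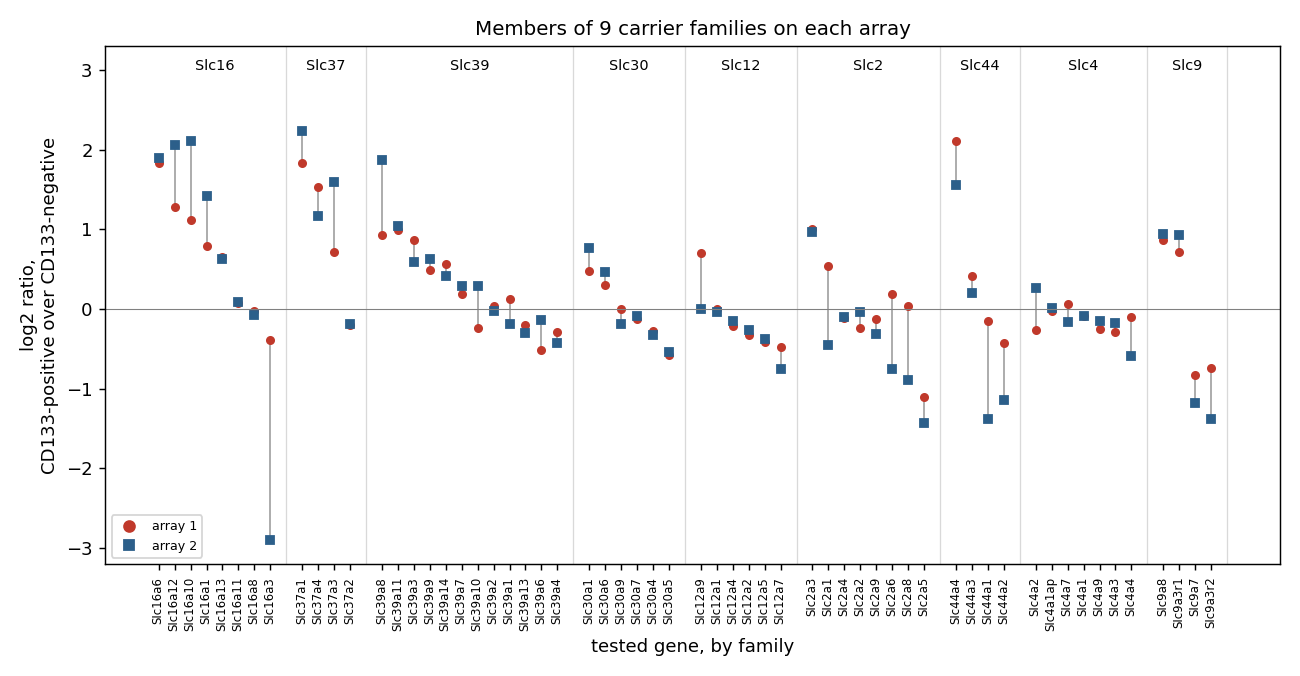
Log2 ratio of CD133-positive over CD133-negative cells (y axis) on array 1 (circles) and array 2 (squares) for tested genes (x axis) of 9 families, as far as they are reported here, with a line joining the arrays. Slc4 includes the adaptor Slc4a1ap and Slc9 the scaffolds Slc9a3r1 and Slc9a3r2, which are not carriers; the family median is 1.25 for Slc37 and 0.64 for Slc16.

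Carriers of chloride with sodium or potassium lay mostly on the lower side. In family Slc12, 6 of 7 tested members were below 0 on both arrays, none of them called, and between 4 and 6 were below the median of all genes on both arrays across the ways of scaling. Among the potassium-chloride cotransporters that let chloride out, Slc12a7 was at -0.62 ± 0.15 (adjusted p = 0.113) and Slc12a4 at -0.18 ± 0.14. Slc12a7 had the levels 13.27 and 13.11 in CD133-positive cells against 13.75 and 13.87 in CD133-negative cells, and the fractions did not overlap. Slc12a2, the sodium-potassium-chloride cotransporter NKCC1 that loads chloride into epithelial cells, was at -0.29 ± 0.14 (adjusted p = 0.264). Slc12a9 was the exception at 0.70 and 0.00. Of the kinases that switch these cotransporters, Wnk1, Wnk4, Stk39 and Oxsr1 were looked at together with Cab39, which binds Stk39 and Oxsr1, and these 5 had negative means with a median of -0.54, but none was called. Wnk2, which is outside that list and was looked up after its value was seen, was at 0.91 ± 0.14 and was not called (adjusted p = 0.0754). Stk39 (SPAK) was at -0.96 and -1.94 (adjusted p = 0.0875), and Wnk1 and Wnk4 were at -0.52 and -0.55.

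Calcium exchangers were few. Slc8b1, the sodium-calcium exchanger of mitochondria (listed in the files as Slc24a6), had 8.54 and 7.88 in CD133-positive cells and 9.09 and 9.57 in CD133-negative cells, a ratio of -1.12 ± 0.32 (adjusted p = 0.134). Slc8a1, the plasma-membrane exchanger NCX1, was at -0.46 ± 0.14 (adjusted p = 0.141), with -0.015 and -0.16 by its other tested probes, and Slc24a5 at -0.47 ± 0.14 (adjusted p = 0.148).

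The sodium pump, whose gradient drives the sodium-coupled carriers, had 3 of its 7 tested genes called higher. Among them were the beta subunit Atp1b1 at 2.11 and 2.57, or 2.34 ± 0.18 (adjusted p = 0.0288), and the regulator Fxyd3 at 2.16 and 1.78, or 1.97 ± 0.17 (adjusted p = 0.0347). The regulator Fxyd5 had a ratio of -1.35 ± 0.25 (adjusted p = 0.0855), and Atp1b3 one of -0.03. Across all 40 partner genes looked at, 37 were tested, 4 were called higher and 0 lower, and the median was -0.10.

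Acid-base and anion exchangers had 14 tested members, none called. Slc26a2, a sulfate carrier, had 11.73 and 12.15 in CD133-positive cells and 10.29 and 9.39 in CD133-negative cells. Its ratio of 1.44 and 2.76 was at least 2-fold on both arrays but varied between them, 2.10 ± 0.36 on average (adjusted p = 0.0821). Slc26a9, a chloride channel and carrier of the gastric surface, stood well above background on both arrays in CD133-positive cells and on neither in CD133-negative cells. As measured it was 2.02-fold higher in CD133-positive cells, with mean levels of 6.88 in CD133-positive cells and 5.87 in CD133-negative cells (adjusted p = 0.0779).

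The sodium-proton exchangers of family Slc9 went both ways. Slc9a8 had 10.35 and 10.16 in CD133-positive cells and 9.48 and 9.21 in CD133-negative cells, a ratio of 0.91 ± 0.14 (adjusted p = 0.0712). Its other tested probe gave 0.085, so the size of the difference depended on the probe. Slc9a7, an exchanger of the trans-Golgi network, was at -0.83 and -1.18, or -1.01 ± 0.16 (adjusted p = 0.0775), a probe of it listed under another name gave -0.89, and a second probe under its own name, not well above background in CD133-positive cells, gave -0.23. The paired scaffolds that tether exchangers and channels to the cytoskeleton also differed in sign. Slc9a3r1 (NHERF1) was at 0.82 ± 0.15 (adjusted p = 0.0827) and Slc9a3r2 (NHERF2) at -1.05 ± 0.21 (adjusted p = 0.0893). The bicarbonate carriers of family Slc4 had mean ratios from -0.34 for Slc4a4 to 0.00 for Slc4a2, the anion exchanger AE2. Slc4a4 was at -0.10 and -0.59 on arrays 1 and 2. Slc4a2 was at -0.26 and 0.27, so its direction was not settled. Slc9a3, Slc26a4 and Slc26a7 had no probe above background.

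Metal carriers were the class with most tested members, 25 of 32, and none was called. The zinc importers of family Slc39 had 6 of 12 tested members above 0 and 3 below 0 on both arrays. Slc39a8 (ZIP8), which imports zinc, manganese and cadmium, had 9.51 and 10.02 in CD133-positive cells and 8.59 and 8.15 in CD133-negative cells, a ratio of 1.40 ± 0.28 (adjusted p = 0.088), and its second tested probe gave 0.67. Slc39a11 had 11.40 and 11.33 in CD133-positive cells and 10.41 and 10.30 in CD133-negative cells, a ratio of 0.99 and 1.04, or 1.02 ± 0.14 (adjusted p = 0.066). For both, each CD133-positive level lay above each CD133-negative level. Slc39a3 was at 0.73 ± 0.15, and Slc39a4, the intestinal zinc importer ZIP4, was at -0.36 ± 0.14 with levels of 14.53 and 14.24 in CD133-positive cells against 14.81 and 14.67 in CD133-negative cells.

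The zinc exporters of family Slc30 had 2 of 6 tested members above 0 and 4 below 0 on both arrays. Slc30a1, the exporter of the plasma membrane, was at 0.62 ± 0.15 (adjusted p = 0.112), and Slc30a5, of the secretory pathway, at -0.56 ± 0.14 (adjusted p = 0.112). The iron exporter ferroportin, Slc40a1, was at 0.58 ± 0.16 (adjusted p = 0.13) and the iron importer Slc11a2 (DMT1) at 0.40 ± 0.14 (adjusted p = 0.17) by 1 of its 3 tested probes, the others giving 0.0017 and 0.023. The copper importer Slc31a1 was at -0.04, and its relative Slc31a2 at -0.61 ± 0.17 (adjusted p = 0.126). Slc41a3, of a family of magnesium carriers, was at -0.85 and -1.92, or -1.39 ± 0.31 (adjusted p = 0.1). Slc11a1 was not well above background in CD133-positive cells. As measured it was 1.18-fold lower there (adjusted p = 0.345), but it lay 0.46 above the median of all genes with median centring. Of 8 genes of iron and zinc handling, 6 were tested and none was called, the largest difference being that of metallothionein 2, Mt2, at -0.96 ± 0.19 (adjusted p = 0.0897).

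Vitamin carriers had 5 tested members, none called. The thiamine carrier Slc19a2 had 11.30 and 11.17 in CD133-positive cells and 10.20 and 10.18 in CD133-negative cells, a ratio of 1.05 ± 0.14 (adjusted p = 0.0659). The reduced-folate carrier Slc19a1 had 10.88 and 10.94 in CD133-positive cells and 10.06 and 10.21 in CD133-negative cells, a ratio of 0.78 ± 0.14 (adjusted p = 0.0823), while its second tested probe gave 0.23. In both the arrays differed by little and the fractions did not overlap. Slc23a3 was at 0.60 ± 0.15, the vitamin C carrier Slc23a2 at -0.54 ± 0.15 (adjusted p = 0.127), and Slc5a6, which takes up biotin and pantothenate, at 0.16 ± 0.18.

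Choline and lipid carriers were led by Slc44a4, a choline-transporter-like protein that carries thiamine pyrophosphate in the colon. It had 8.72 and 7.84 in CD133-positive cells and 6.61 and 6.28 in CD133-negative cells, a ratio of 2.11 and 1.55, or 1.83 ± 0.20, just short of the threshold (adjusted p = 0.0506). A second probe gave 1.78. It was called under 7 of 10 other settings. Its relatives Slc44a1 and Slc44a2 were on the other side, at -0.76 ± 0.34 (adjusted p = 0.245) and -0.79 ± 0.23 (adjusted p = 0.136), and Slc44a3 was at 0.31. Slc27a1, a fatty acid transport protein, was at -0.40 and -1.42, or -0.91 ± 0.29 (adjusted p = 0.156), and Slc33a1, which carries acetyl-CoA into the endoplasmic reticulum, at -0.31.

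Organic ion and bile acid carriers were the class with the smallest measured share among those of over 15 genes, 16 tested of 37, and none was called. Slc22a4 (OCTN1), a carrier of ergothioneine, had 11.16 and 10.75 in CD133-positive cells and 9.37 and 9.77 in CD133-negative cells, a ratio of 1.79 and 0.97, or 1.38 ± 0.25 (adjusted p = 0.0827). Slco4a1, a carrier of thyroid hormones and other organic anions, was at 0.73 and 1.25, or 0.99 ± 0.19 (adjusted p = 0.0861). Slco4c1 in CD133-negative cells was likewise not well above background and was at least 1.63-fold higher in CD133-positive cells (adjusted p = 0.0944). The prostaglandin carrier Slco2a1 was bright and near equal, with 13.55 and 13.36 in CD133-positive cells and 13.42 and 13.21 in CD133-negative cells. The carnitine carrier Slc22a5 was at 0.05 ± 0.18.

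The arrays disagreed for some members of this class. Slc22a18 was at 0.53 on array 1 and -1.82 on array 2, with levels of 9.07 and 7.22 in CD133-positive cells and 8.55 and 9.04 in CD133-negative cells. A second probe of Slc22a18 had a mean of -0.060. Slco3a1 was at -0.54 and 1.29. No direction can be read from either. Slc22a14 was at -0.97 ± 0.27 (adjusted p = 0.128), with a CD133-positive signal well above background on 1 array, and Slco1a5 was at -0.47 ± 0.15 (adjusted p = 0.154).

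The smaller classes held few differences. Of vesicular and lysosomal carriers, Slc18a1, which loads monoamines into vesicles, was at 0.70 and 1.63, or 1.16 ± 0.27 (adjusted p = 0.106). Slc15a4, a lysosomal carrier of peptides and histidine, had 10.93 and 10.48 in CD133-positive cells and 11.41 and 11.49 in CD133-negative cells, a ratio of -0.75 ± 0.19 (adjusted p = 0.117). It lay opposite to Slc15a2, its relative at the cell surface. Slc17a8 was not well above background in CD133-positive cells. As measured it was 1.05-fold lower there (adjusted p = 0.795), a difference that changed sign with no background correction and with median centring. The phosphate carriers were at -0.48 ± 0.18 for Slc20a2 (adjusted p = 0.185), or -0.17 by its other tested probe, and at -0.71 and 0.27 on arrays 1 and 2 for Slc20a1. Slc13a4 and Slc17a1 were at -0.47 and -0.43, and lay 0.03 and 0.18 above the median of all genes with median centring. The 5 Slc35a genes, classed as nucleotide-sugar carriers of the Golgi, which supply glycosylation, were all tested. They ranged from -0.25 for the UDP-galactose carrier Slc35a2 to 0.52 for Slc35a4. Slc35 genes with another letter fell outside the name rule and were not looked at.

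**Figure D5:**
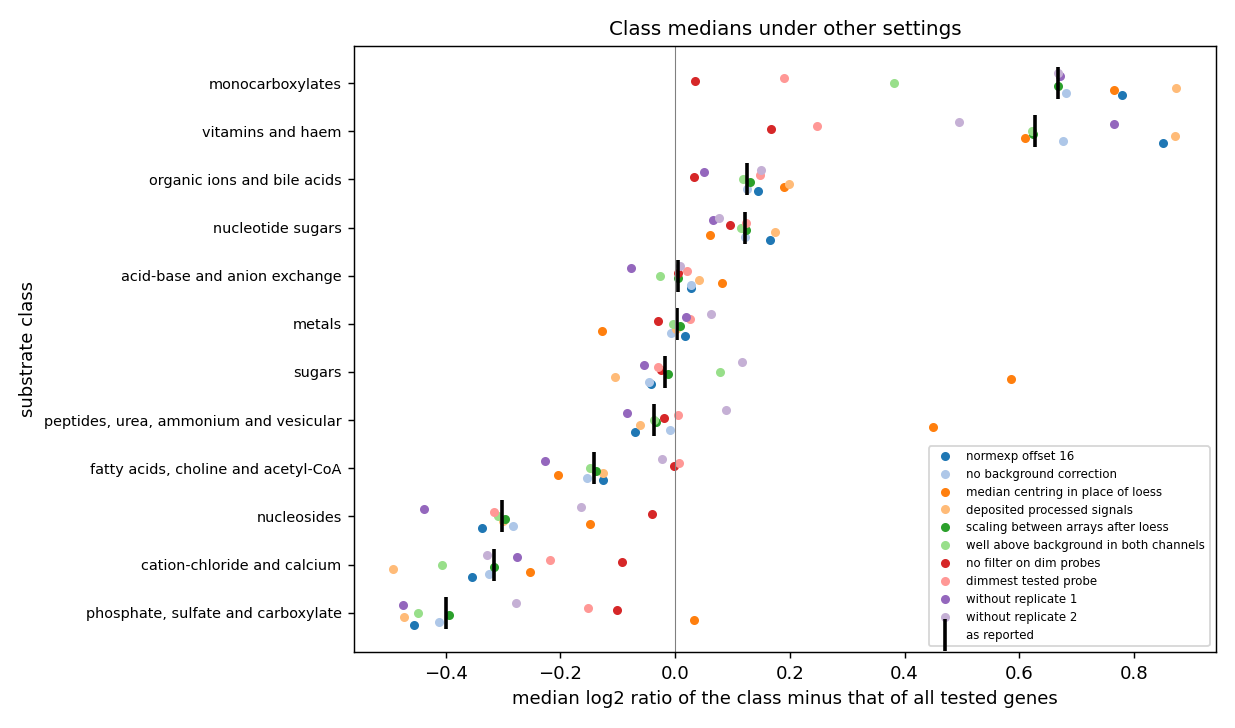
Median log2 ratio of each of 12 substrate classes minus that of all tested genes (x axis), by class (y axis); black bars are the values reported and coloured points those of 10 alternatives. Monocarboxylate and vitamin carriers are above 0 in every setting and cation-chloride and calcium carriers below 0, while sugar carriers reach 0.59 with median centring.

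Of the 219 carriers, 89 were not tested. For 76 no probe was well above background in either fraction on either array, and 13 were above background in part. The 76 include the peptide carrier of the intestine, Slc15a1, the bile acid carrier of the liver, Slc10a1, the vesicular glutamate carriers Slc17a6 and Slc17a7, and the iodide carrier Slc5a5. Those measured in part were Slc9a2, Slc9a4, Slc10a2, Slc10a4, Slc14a1, Slc22a20, Slc24a3, Slc26a3, Slc28a3, Slc34a2, Slc41a2, Slco1a6 and Slco1c1. Among 41 carriers with more than 1 tested probe, the probes of a gene spanned a median of 0.19 on the log2 scale, and in 6 they lay on both sides of 0: Slc4a3, Slc4a1ap, Slc14a2, Slc27a4, Slc30a9 and Slc39a1.

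The sort itself was checked by Prom1, which was called higher (adjusted p = 0.00967). Its CD133-negative signal was not well above background, so that it was at least 11.96-fold higher in CD133-positive cells. Of 13 gastric epithelial markers 11 were tested, and 3 were called higher (Tff1, Gkn2 and Muc1). The keratins Krt8, Krt18 and Krt19, with log2 intensities of 15.04 or more in both fractions, were at -0.78, -0.54 and -0.79 and were not called (adjusted p = 0.0831, 0.125 and 0.0861). Epcam, a general epithelial marker, was above background only in CD133-negative cells and on 1 array, and no probe bore the name Muc5ac. The parietal markers Atp4a and Cblif had no probe above background, nor did Ptprc and Itgam of blood cells, Pecam1 and Kdr of endothelium or Pdgfra of fibroblasts. Cdh5, the other endothelial marker, was called higher (adjusted p = 0.0431), at least 5.81-fold since its CD133-negative signal was not well above background, and the fibroblast marker Col1a1 was at -1.25 ± 0.18 (adjusted p = 0.0674). The part of other cell types in the results was not tested. Non-control spots well above background numbered 23694 and 23498 in the CD133-positive channel and 25213 and 24648 in the CD133-negative channel on arrays 1 and 2, no spot was saturated, and the number of arrays limits the precision.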

How the data were processed

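Total RNA of sorted cells was measured on 2 two-colour Agilent arrays, which lay on 1 slide and were scanned together. Spot and background intensity values come from the scanner program (Agilent Feature Extraction 9.5.3.1 in the headers) and were deposited unnormalised. Its processed signals were deposited too, as an intensity with the background subtracted and the dyes balanced. The deposited log10 ratio is of red over green, CD133-negative over CD133-positive, and its deposited p-value comes from the error model of the program, per the file headers. The genome build was not given in the sources used here.

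Here the intensities were corrected by normexp (offset 50), normalised by loess within arrays and turned into log2 ratios of the CD133-positive over the CD133-negative channel. For the log2 intensities given for each channel, the average intensities were also quantile-normalised between arrays, which leaves the ratios unchanged. Spots of a probe were averaged. The tested probe with the highest mean intensity stood for a gene. Differences were tested with limma 3.58.1 (R 4.3.3, two-sided, 1 residual and 2.86 prior degrees of freedom) with Benjamini-Hochberg adjustment over 15267 genes at 0.05. The code was also run on ratios simulated from the model that the test assumes, with independent arrays. That run checks the code only and cannot show whether the model holds for these arrays. P-values measure only the spread between these arrays, which may be technical.

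Members, classes, partner genes and markers were chosen with earlier results of these data known. Genes named are the members called, the 12 highest and 12 lowest, up to 4 per class with the same direction on both arrays, and those with only a bound. Carriers named beyond these were chosen after their values were seen. Alternatives changed the offset, background correction, normalisation, filter, probe choice, variance moderation and arrays used. Some genes that were tested and counted are not reported by name here.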

Additional observations from a re-analysis of the deposited data

How the results depend on the processing

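The reported counts were 4 carriers called higher and 0 lower, and 10 at least 2-fold higher and 1 lower on both arrays. Slc28a2 was called under all alternatives but the one without moderation, where no gene of the array was called, and 13 carriers were higher and 6 lower at an unadjusted p under 0.05. The share of all tested genes at that unadjusted threshold is not given here. The other 3 calls also held except without a filter, where Slc28a2 alone was called, and with the dimmest probe, where Slc28a2 and Slc37a1 were. Counts of carriers called higher and lower were 11 and 1 with a normexp offset of 16, 7 and 1 with no background correction, 12 and 68 after median centring, 9 and 0 from the processed signals as deposited, 9 and 1 with scaling between arrays, 1 and 0 without a filter, 2 and 0 with the dimmest probe, 0 and 0 without moderation, and 14 and 2 with an intensity trend. Calls among all tested genes, higher and lower, also rose with the offset of 16, no background correction, the processed signals, the scaling and the trend. They fell without a filter, with the dimmest probe and without moderation. The rise or fall of the carrier counts under these settings was therefore not particular to carriers. Median centring moved the median of all tested genes to -0.74 and called 484 genes higher and 9622 lower, against 211 and 40 here. It gave 24 carriers at least 2-fold lower on both arrays, the offset of 16 gave 17 higher, and the processed signals gave 18 higher and 6 lower. With array 1 or array 2 left out, from 13 to 17 were at least 2-fold higher and from 1 to 14 lower. For these counts by size under other settings, the share of all tested genes is not given here.

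The acid-base median, 0.0056 relative to all genes, was 0.082 with median centring in place of loess, from -0.077 to 0.0085 with an array left out. The cation-chloride and calcium median, -0.32 relative to all genes, was -0.35 with a normexp offset of 16, -0.25 with median centring in place of loess, -0.49 with the deposited processed signals, -0.41 with only probes above background in both channels, -0.092 with no filter on dim probes, -0.22 with the dimmest probe per gene, from -0.33 to -0.28 with an array left out. The lipid and choline median, -0.14 relative to all genes, was 0.0067 with the dimmest probe per gene. The nucleotide-sugar median, 0.12 relative to all genes, was 0.16 with a normexp offset of 16, 0.061 with median centring in place of loess, 0.17 with the deposited processed signals, 0.096 with no filter on dim probes, from 0.066 to 0.076 with an array left out. The organic ion median, 0.13 relative to all genes, was 0.20 with the deposited processed signals, 0.033 with no filter on dim probes, from 0.050 to 0.15 with an array left out. The peptide and vesicular median, -0.036 relative to all genes, was 0.45 with median centring in place of loess, from -0.084 to 0.090 with an array left out. The phosphate and sulfate median, -0.40 relative to all genes, was 0.033 with median centring in place of loess, -0.10 with no filter on dim probes, -0.15 with the dimmest probe per gene. The vitamin median, 0.63 relative to all genes, was 0.85 with a normexp offset of 16, 0.87 with the deposited processed signals, 0.17 with no filter on dim probes, 0.25 with the dimmest probe per gene. The monocarboxylate median, 0.67 relative to all genes, was 0.78 with a normexp offset of 16, 0.68 with no background correction, 0.76 with median centring in place of loess, 0.87 with the deposited processed signals, 0.38 with only probes above background in both channels, 0.034 with no filter on dim probes, 0.19 with the dimmest probe per gene, from 0.67 to 0.67 with an array left out. The metal median, 0.0035 relative to all genes, was -0.13 with median centring in place of loess, -0.031 with no filter on dim probes, from 0.019 to 0.062 with an array left out. The nucleoside median, -0.30 relative to all genes, was -0.040 with no filter on dim probes. The sugar median, -0.017 relative to all genes, was 0.59 with median centring in place of loess, from -0.054 to 0.12 with an array left out.

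Single genes that changed sign relative to all genes with median centring were Slc29a3 at 0.43, Slc17a8 at 0.74, Slc13a4 at 0.033, Slc17a1 at 0.18, Slc5a3 at 0.26, Slc2a2 at 0.64, Slc37a2 at 0.58, Slc2a9 at 0.59, Slc11a1 at 0.46. With no background correction Slc17a8 was at 0.0073. Near 0, Slc29a3, Slc2a2 and Slc17a8 also changed sign with an array left out, and no other single gene named by rule changed sign under any alternative. Causes of these shifts were not tested. Each array pairs the fractions, so the fit of ratios within arrays is itself paired, and no further block could be fitted. Signal over background limits the dim probes, and 1 residual degree of freedom limits every p-value.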
